A study of Mus musculus with 6 samples.

Results

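Promoter intervals of the Zfp zinc finger genes were examined in an ATAC-seq series of mouse skeletal muscle nuclei. In ATAC-seq the Tn5 transposase cuts accessible DNA and inserts adapters, and a region that gives more fragment ends has more open chromatin. An interval of the deposited table was a member when its nearest edge lay within 1 kb of a transcription start site (TSS) of an autosomal protein-coding gene whose symbol is Zfp followed by a digit, in the GENCODE vM1 annotation of mm9. This rule used position and gene names only and chose 509 of 39768 intervals, which belong to 262 of 362 annotated Zfp gene entries (358 symbols, 4 of them with 2 entries, called genes below). Both groups came from C57BL/6 mice 7 weeks old in which H2A.Z-1 and H2A.Z-2 are floxed on both alleles, and the tibialis anterior muscle is the tissue in the labels, whereas the methods speak of hind-limb muscles. The 3 control libraries (CTL, titled WT) came from HSA CRE - mice, and the 3 libraries labelled H2A.Z dKO (dKO from here on) from HSA CRE + mice. The human skeletal actin promoter drives this Cre in post-mitotic muscle fibres, so nuclei of other cell types in the muscle keep both genes. Each library was made from 50000 nuclei, and the labels do not say whether libraries of a group came from separate animals, so that every p-value given here measures only the spread between these libraries.

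Zfp genes encode proteins with zinc fingers, mostly of the C2H2 type, in which tandem fingers each contact a few bases of DNA. Many carry a KRAB domain, which recruits the corepressor Trim28 and with it Setdb1, a histone H3 methyltransferase, to silence chromatin, often at transposable elements. Many KRAB genes arose by tandem duplication and lie in clusters in which neighbours can share nearly identical sequence. Zfp genes without KRAB include some with roles in transcription, RNA binding or ubiquitin ligation. H2A.Z is a histone variant that replaces H2A in nucleosomes next to active TSSs, and the comparison asks whether these promoters are as accessible in muscle from mice with the Cre that is meant to delete both H2A.Z genes in fibres.

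The promoter sequences of intervals described in detail later are shown first. All are from the mm9 reference and run 5′ to 3′ on the strand of the gene. In the first 5, capitals mark matches on either strand to CCAAT (NFY, read as ATTGG on the other strand), GGGCGG (SP/KLF GC box), CCGGAAGT (ETS) or CAGCTG (E box). Zfp738, chr13:67784482-67784683 on the minus strand, is the stretch just before the TSS in the interval with the smallest p among those with a lower count in dKO, and it has 52.0% GC with a CCAAT and a CAGCTG:
Zfp738: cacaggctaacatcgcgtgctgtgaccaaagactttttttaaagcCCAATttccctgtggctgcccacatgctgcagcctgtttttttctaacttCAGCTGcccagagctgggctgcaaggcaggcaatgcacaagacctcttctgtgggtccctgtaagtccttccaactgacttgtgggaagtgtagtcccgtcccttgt
Zfp384, chr6:124959518-124959730 on the plus strand, is the stretch before a TSS in an interval with a small p in the other direction, with 71.4% GC, 19 CpG, a CCGGAAGT and a GGGCGG:
Zfp384: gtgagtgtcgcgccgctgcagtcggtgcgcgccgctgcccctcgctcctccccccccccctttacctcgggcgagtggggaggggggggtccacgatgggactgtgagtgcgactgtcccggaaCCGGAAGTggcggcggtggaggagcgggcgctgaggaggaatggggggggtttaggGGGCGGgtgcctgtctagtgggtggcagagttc
Zfp362, chr4:128484206-128484302 on the minus strand, is a whole interval that lies 917 to 1013 bases upstream of its TSS and holds 1 CCAAT:
Zfp362: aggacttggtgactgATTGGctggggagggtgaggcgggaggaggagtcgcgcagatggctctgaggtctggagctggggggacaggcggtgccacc
Zfp322a, chr13:23460635-23460664 on the minus strand, is a whole interval of 30 bases inside the gene and outside its exons, in which none of the motifs was found:
Zfp322a: ggcactggggggaccctcccccagccttaa
Zfp574, chr7:25862015-25862264 on the plus strand, is the stretch before the TSS in the interval with the highest mean level, and it holds 4 CCAAT:
Zfp574: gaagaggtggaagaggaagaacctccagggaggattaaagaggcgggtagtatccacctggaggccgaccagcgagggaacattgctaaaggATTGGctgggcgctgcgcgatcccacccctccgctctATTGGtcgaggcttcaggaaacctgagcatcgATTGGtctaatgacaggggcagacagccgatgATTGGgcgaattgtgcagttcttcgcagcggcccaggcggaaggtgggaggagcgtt

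The next sequences come from clustered genes and show how alike neighbouring promoters can be, which limits how surely a read can be placed. The 276 bases before the TSS of Zfp955a, chr17:33391986-33392261 on the minus strand, and of Zfp955b, chr17:33426318-33426593 on the plus strand, have 0 mismatches, so 1 sequence stands for both, with 2 CCAAT and 1 GGGCGG in capitals:
Zfp955a: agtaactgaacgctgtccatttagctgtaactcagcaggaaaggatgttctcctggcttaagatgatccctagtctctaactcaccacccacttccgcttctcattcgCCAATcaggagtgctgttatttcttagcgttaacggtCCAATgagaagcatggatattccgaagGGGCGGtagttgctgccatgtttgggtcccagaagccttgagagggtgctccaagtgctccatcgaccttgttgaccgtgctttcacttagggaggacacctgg
In the group of 3 on chromosome 17, capitals mark bases that differ from the aligned bases of Zfp959 or, in Zfp959, from either of the others. They are Zfp959, chr17:56031316-56031606 on the plus strand, Zfp119a, chr17:56018128-56018418 on the minus strand, with 9 mismatches and 6 gap bases against Zfp959, and Zfp119b, chr17:56084598-56084888 on the minus strand, with 5 mismatches and 6 gap bases:
Zfp959: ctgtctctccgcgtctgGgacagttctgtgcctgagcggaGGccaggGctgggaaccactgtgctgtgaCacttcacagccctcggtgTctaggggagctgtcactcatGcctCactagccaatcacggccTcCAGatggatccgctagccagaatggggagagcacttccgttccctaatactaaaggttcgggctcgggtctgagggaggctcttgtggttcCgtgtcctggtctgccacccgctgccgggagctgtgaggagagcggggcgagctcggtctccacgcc
Zfp119a: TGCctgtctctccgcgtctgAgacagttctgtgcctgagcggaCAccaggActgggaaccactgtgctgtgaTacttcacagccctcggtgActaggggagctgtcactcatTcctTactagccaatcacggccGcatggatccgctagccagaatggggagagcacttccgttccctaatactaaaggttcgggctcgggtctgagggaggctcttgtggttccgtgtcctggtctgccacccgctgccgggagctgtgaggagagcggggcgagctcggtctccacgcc
Zfp119b: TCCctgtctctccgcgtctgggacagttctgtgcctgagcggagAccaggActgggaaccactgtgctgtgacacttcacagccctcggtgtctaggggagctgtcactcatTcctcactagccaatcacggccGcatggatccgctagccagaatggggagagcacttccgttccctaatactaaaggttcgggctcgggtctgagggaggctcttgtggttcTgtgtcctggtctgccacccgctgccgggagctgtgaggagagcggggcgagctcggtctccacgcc

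Library totals in all intervals ran from 3520008 counts (CTL replicate 3) to 6117245 (CTL replicate 1), and TMM factors from 0.971 to 1.02. By a chi-square per interval, the pairs of libraries that include dKO replicate 1 gave 3.66 to 4.80 and all other pairs 1.45 to 2.13, where counting noise alone gives about 1, so that main values are given below with and without this library. The deleted part of H2A.Z-1 is exons 2 to 4 of H2afz, which span chr3:137528097-137529104. In its 2 intervals CTL replicates 1 to 3 held 79, 69 and 33 counts together, and those of dKO 57, 52 and 64, or 12.4 ± 2.83 CPM, the count scaled to the library's size, against 11.3 ± 1.28 (SD, n = 3). This does not tell the groups apart. The promoter intervals of H2afz and H2afv lie outside the deleted exons and check nothing, so that each direction given for dKO rests on the labels. Of 12 muscle fibre marker genes 9 had a promoter interval, with summed CPM of 495 to 633 in CTL and 525 to 680 in dKO, while Myh1, Mylpf and Atp2a1 had none. None of 6 macrophage and 3 satellite cell markers had one. For endothelial cells it was 4 of 6 genes, without the defining markers Pecam1 and Emcn, and their sum was 56.0 to 69.0 in CTL and 45.3 to 52.5 in dKO, without overlap. For fibroblasts it was 4 of 6 genes, with 77.3 to 95.01 and 92.2 to 103.5. Fewer nuclei of a cell type and less accessibility per nucleus cannot be told apart in such bulk libraries.

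Most Zfp genes had at least 1 accessible interval at a promoter. The share was 262 of 362 genes, or 72.4% (exact 95% Clopper-Pearson interval 67.5% to 76.9%, counting error only), against 49.7% of 21056 other autosomal protein-coding genes and 71.8% of the 78 genes named Zbtb, Zkscan, Zscan or Klf, which also encode zinc finger factors. These shares count genes of the annotation and were not tested. Of the Zfp genes 100 had no interval, 96 had 1 and 105 had 2, and the most was 7, at 1 gene. The distance hardly mattered, with 71.5% at 500 bp and 73.2% at 2 kb. Just inside the limit, 801 to 1000 bp from the TSS, lay 8 intervals with a median level of 181 RPKM and log2 fold changes of -0.26 to 2.02, and just outside, up to 1200 bp, lay 2 with a median of 154 RPKM and log2 fold changes of 0.28 and 0.30.

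The intervals sat on and just upstream of the TSS. Their median width was 199 bp (9 to 914), the median midpoint lay 19.5 bp upstream, 228 midpoints (44.8%) were within 200 bp upstream and 125 (24.6%) within 200 bp downstream, and 284 intervals (55.8%) covered a TSS. At 94 intervals (18.5%) the TSS of a gene on the opposite strand lay within the same distance, and 35 were nearer to the TSS of another gene than to that of the Zfp gene, so that their counts may belong to either promoter. Since 109 intervals overlap another interval of the table, members are not independent of each other.

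Levels are given as RPKM, the count divided by the width of the interval in kb and by the library's total over all intervals. The median over the 509 intervals was 124 ± 0.888 in CTL and 123 ± 2.77 in dKO (SD, n = 3), below the 134 ± 0.298 and 135 ± 4.25 of 19198 other protein-coding promoter intervals and the 153 ± 2.68 and 158 ± 7.98 of the Zbtb, Zkscan, Zscan and Klf intervals. Mean RPKM of single members ran from 48.4 to 361. The leading interval of a gene is the one with the highest mean CPM. Its median RPKM was 120 ± 3.78 in CTL for the 127 genes with an interval that lie in clusters, defined as runs of at least 3 Zfp genes in which each start lies within 200 kb of the next, and 145 ± 1.88 for the 135 scattered ones (SD, n = 3). In dKO it was 113 ± 6.12 and 139 ± 2.38, so the order of clustered and scattered genes was the same in both groups and the CTL libraries did not overlap between them. The share of genes with an interval was 76.0% for clustered genes (127 of 167, exact interval 68.8% to 82.3%) and 69.2% for scattered ones (135 of 195, 62.2% to 75.6%), intervals that overlap.

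A KRAB A-box pattern was found in the translated coding sequence of 187 genes. Of these 135 (72.2%) had an interval, as did 127 of the 175 others (72.6%), but the leading interval was lower in KRAB genes, with a median RPKM of 116 ± 2.86 against 153 ± 6.34 in CTL and 109 ± 7.31 against 148 ± 1.31 in dKO (SD, n = 3). The median number of C2H2 fingers was 12 in KRAB genes and 6 in the others. Split by both features, an interval was found at 76.7% of clustered KRAB genes, 61.1% of scattered ones (33 of 54, exact interval 46.9% to 74.1%), 73.5% of other clustered genes and 72.3% of other scattered ones.

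The promoters of KRAB and clustered genes were also poorer in GC. In windows from 250 bases before to 50 bases after the TSS the median GC was 53.0% for KRAB genes and 63.3% for other Zfp genes, 54.3% for clustered and 61.3% for scattered genes, and 57.7% for all 262 against 62.7% for 10464 other genes with an interval. The ratio of observed to expected CpG followed, at 0.635, 0.811, 0.649, 0.801, 0.710 and 0.805. Motif letters were counted on both strands. GGGCGG, the GC box bound by SP and KLF factors, stood in 52.7% of Zfp windows (42.5% of clustered, 62.2% of scattered) and in 69.8% of all windows. CCAAT, bound by NFY, stood in 39.7% (44.1% and 35.6%) and in 38.3% of all. CCGGAAGT, an ETS site, stood in 11.8% and 9.07%, CAGCTG, an E box of the kind that myogenic factors bind, in 18.7% and 14.9%, and TGACGTCA, the cyclic AMP response element, in 5.34% and 3.74%. TATAAA stood in 5.34% and 5.55%, GCGCATGCG (NRF1) in 4.96% and 3.78%, AAGATGGCG (YY1) in 4.58% and 3.62%, TCTCGCGAG (Kaiso-like) in 0.382% and 1.48%, and CTATTTATA (MEF2) in 0.763% and 0.298%. A match describes the letters in the window only. The Zfp738 and Zfp384 sequences above lie toward the lower and the upper end of this range of GC.

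No Zfp promoter interval differed between the groups past the threshold. By the quasi-likelihood test of edgeR, fitted and adjusted over the whole table, 0 of 509 intervals had an adjusted p under 0.05 (the smallest was 0.855), as had 0% of all intervals, and DESeq2 also called 0. At an unadjusted p under 0.05 edgeR gave 10 intervals with a higher count in dKO, or 1.96% where the share over all intervals is 2.64%, and 16 with a lower one, or 3.14% where it is 2.31%, and DESeq2 gave 9 in all. These shares lie near those over all intervals. Over other promoter intervals edgeR gave 2.00% higher and 1.67% lower, so the share of Zfp intervals with a lower count stood above theirs. The median log2 fold change was -0.015, where the SD of the per-library medians was 0.040, against 0.012 over all intervals and 0.011 over other promoter intervals. Without dKO replicate 1 these medians were -0.064, 0.0015 and -0.041. Of the members 241 (47.3%) were above 0, against 52.5% and 52.8%, and 497 lay between -0.5 and 0.5.

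**Figure D1:**
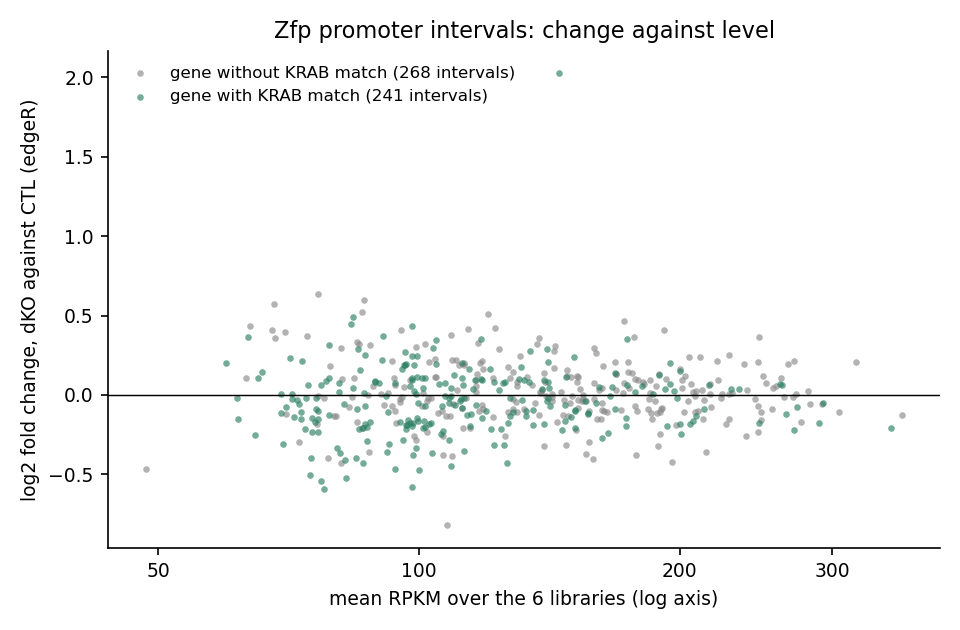
Log2 fold change of the 509 Zfp promoter intervals (dKO against CTL, edgeR, vertical axis) against their mean RPKM over the 6 libraries (log axis), green for genes with a KRAB match and grey for the others. Points lie around 0 at all levels, and the point at 2.02 is the 9-bp interval of Zfp74.

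The 95% intervals of the fold changes, not adjusted for the number of tests, show which fold changes the counts allow. They do not give the size of a difference that the adjusted test would have called. For 496 members (97.4%) the 95% interval of the fold change stayed inside 2-fold in either direction, and for 336 (66.0%) inside 1.5-fold, with a median width of 0.38 to each side. All dKO libraries lay above all CTL libraries in 22 members (4.32%), where the share over all intervals is 5.22%, and below them in 48 (9.43%), where it is 5.63%, by scaled counts. Over other promoter intervals it was 4.71% above and 5.83% below. Zfp promoter intervals together held 1.75% ± 0.026 of the counts in CTL and 1.73% ± 0.030 in dKO (SD, n = 3).

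KRAB genes and leading intervals were also described apart from other members, and 1 library bears on their values. The median log2 fold change was -0.048 over 241 intervals of KRAB genes, with 41.5% above 0 and 30 (12.4%) in which all dKO libraries were lowest, and 0.0093 over 268 intervals of other Zfp genes, with 18 such intervals (6.72%), beside 5.63% of all intervals. All dKO libraries were highest in 12 (4.98%) and 10 (3.73%), beside 5.22%. KRAB genes had 2 intervals (0.830%) higher in dKO and 9 (3.73%) lower with an unadjusted p under 0.05 (edgeR), and the others 8 (2.99%) and 7 (2.61%), beside 2.64% and 2.31% of all intervals. Per library, the median deviation of KRAB intervals from the mean of the 6 libraries was 0.023, 0.062 and 0.019 in CTL replicates 1 to 3 and -0.026, -0.027 and -0.0063 in dKO, so the groups did not overlap. For other Zfp genes it was 0.0052, 0.016 and -0.021 in CTL and 0.12, -0.063 and -0.055 in dKO, where replicate 1 stood above all others and replicates 2 and 3 below. Without dKO replicate 1 the median was -0.047 for KRAB genes, -0.073 for other Zfp genes and -0.041 for other promoters, so the difference between KRAB and other Zfp genes went from -0.058 to 0.026. It was not tested which of these libraries is typical of dKO.

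Among leading intervals, the median was -0.058 over 258 Zfp intervals, with 34.5% above 0, and -0.013 over 9350 of other genes, with 46.6% above 0. For the 133 of KRAB genes it was -0.10, and for the 125 of other Zfp genes -0.023. All dKO libraries were lowest in 22 (16.5%) of the former and 8 (6.4%) of the latter, beside 7.48% of the leading intervals of other genes and 5.63% of all intervals, and highest in 4 (3.01%) and 2 (1.60%), beside 3.87% and 5.22%. Without dKO replicate 1 the medians were -0.059 for Zfp genes, -0.036 for other genes, -0.052 for KRAB genes and -0.062 for Zfp genes without KRAB, so that the order of the last pair turned. Leaving out each library in turn gave -0.075 to -0.034 for Zfp genes, the latter without CTL replicate 2, -0.14 to -0.052 for KRAB genes and -0.062 to 0.0093 for Zfp genes without KRAB. Medians by GC content were also taken. Below 60% GC the median was -0.060 for 189 Zfp intervals and -0.018 for 4907 others, between 60% and 70% it was 0.0040 and 0.0019, and from 70% it was 0.041 and 0.044. Without dKO replicate 1 these medians were -0.057, -0.064 and -0.074 for Zfp intervals and -0.019, -0.044 and -0.050 for others, so that the order by GC turned. In dKO replicate 1 itself the median deviation was -0.086, 0.085 and 0.18 for Zfp intervals in these 3 ranges, and -0.022, 0.075 and 0.19 for others. KRAB intervals below 60% GC had a median of -0.086, and -0.039 without dKO replicate 1. The part of GC and of this library in the values of KRAB genes was not tested.

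**Figure D2:**
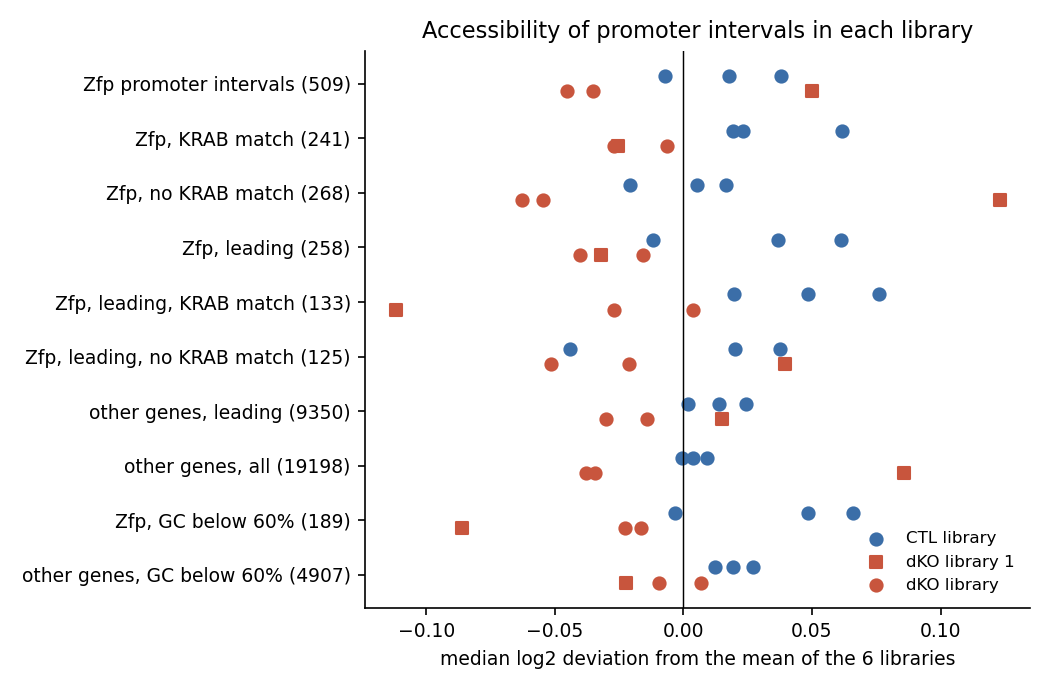
Median log2 deviation of each library from the mean of the 6 libraries (horizontal axis) for groups of promoter intervals, blue for CTL, red for dKO and a red square for dKO replicate 1, with the number of intervals in brackets. The square is the highest library in Zfp genes without a KRAB match (0.12) and the lowest in Zfp intervals below 60% GC (-0.086).

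For each direction, the 5 intervals of smallest p show what differences of this size look like. All 10 had groups without overlap, which follows in part from the choice by p, and each had an adjusted p of 0.972 or, for Zfp74, 0.855 (edgeR). The authors listed the intervals of Zfp74, Zfp187 and Zfp362 for dKO only and that of Zfp322a for CTL only, in each case the group with the higher counts. The interval of Zfp454, lower in dKO, was listed for dKO only. Zfp738, a KRAB gene of the chromosome 13 cluster, had 116, 126 and 110 RPKM in CTL replicates 1 to 3 and 70.7, 76.6 and 89.8 in dKO, a log2 fold change of -0.58 (SE 0.16). It is the GC-poor promoter printed above, and its 284-bp interval covers the TSS. Zfp846, also a KRAB gene, had 127, 169 and 139 RPKM in CTL and 91.1, 111 and 121 in dKO (-0.43, SE 0.14). Zfp174 had 231, 242 and 248 RPKM against 147, 207 and 212 (-0.36, SE 0.12), and its second interval had a log2 fold change of -0.43 (SE 0.20). In Zfp174 the lowest library was dKO replicate 1, with the other dKO libraries close below CTL, and without it the log2 fold change of the first interval was -0.22.

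Zfp322a, of the 30-base sequence above, had 114, 122 and 180 RPKM in CTL and 68.1, 87.9 and 73.0 in dKO (-0.82, SE 0.30). These values rest on 21, 17 and 19 counts against 12, 12 and 11. Zfp454, a KRAB gene of a chromosome 11 cluster, had 101.2, 94.0 and 100.5 RPKM against 56.2, 89.0 and 76.5 (-0.43, SE 0.18, and -0.28 without dKO replicate 1). The remaining intervals with a lower count at an unadjusted p under 0.05 (edgeR) belonged to Zfp456 (-0.54), Zfp52 (-0.52), Zfp759 (-0.47), Zfp58 (-0.41), Zfp652 (-0.40), Zfp874a (-0.38), Zfp521 (-0.32), Zfp512 (-0.30), Zfp68 (-0.24) and Zfp277 (-0.23). Without dKO replicate 1 Zfp58 had -0.22 and Zfp874a -0.23. The values given for Zfp322a, Zfp52, Zfp58 and Zfp652 are not those of their leading intervals. These had log2 fold changes of -0.11, 0.16, -0.12 and 0.091, so for Zfp52 and Zfp652 the direction was the other one.

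In the other direction, Zfp74, a KRAB gene of chromosome 7, had an interval of 9 bp about 881 bp upstream of the TSS, where CTL replicates had 3, 1 and 3 counts and those of dKO 11, 11 and 10. In RPKM this was 57.7 ± 35.5 against 233 ± 31.8 (SD, n = 3), a log2 fold change of 2.02 (SE 0.46, 95% interval 1.06 to 2.99). The leading interval of Zfp74, 464 bp wide, had a log2 fold change of -0.062 (SE 0.14), and the 9-bp interval lies in an exon of C230062I16Rik. The interval of Zfp384, which encodes a factor that binds AT-rich DNA, had 152, 144 and 140 RPKM in CTL and 250.2, 171 and 178 in dKO (0.47, SE 0.15). Its sequence, printed above, is rich in GC, and dKO replicate 1 was the highest library. Zfp187 had 61.8, 56.3 and 62.1 RPKM against 114, 86.8 and 77.0 (0.64, SE 0.23). Zfp219, a partner of Sox9, had 236, 220.5 and 189 RPKM against 324, 242 and 269 (0.37, SE 0.14), in an interval about 926 bp inside the gene. Zfp362, whose interval lies upstream of the gene as printed above, had 69.1, 73.5 and 64.4 RPKM against 132, 104 and 76.0 (0.60, SE 0.25). In Zfp384, Zfp187, Zfp219 and Zfp362 the highest value was that of dKO replicate 1, and without it their log2 fold changes were 0.24, 0.42, 0.21 and 0.35. Others with a higher count at an unadjusted p under 0.05 (edgeR) were Zfp2 (0.57), Zfp532 (0.52), Zfp395 (0.51), Zfp110 (0.35) and an interval of Zfp191 (0.31), of which Zfp395, Zfp110 and Zfp191 had 0.29, 0.22 and 0.19 without dKO replicate 1. The values given for Zfp187, Zfp219, Zfp2, Zfp395 and Zfp191 are not those of their leading intervals. These had log2 fold changes of 0.056, 0.096, -0.11, 0.17 and 0.030, so for Zfp2 the direction was the other one. Over all 509 members, 246 fold changes took the other sign when some single library was left out.

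**Figure D3:**
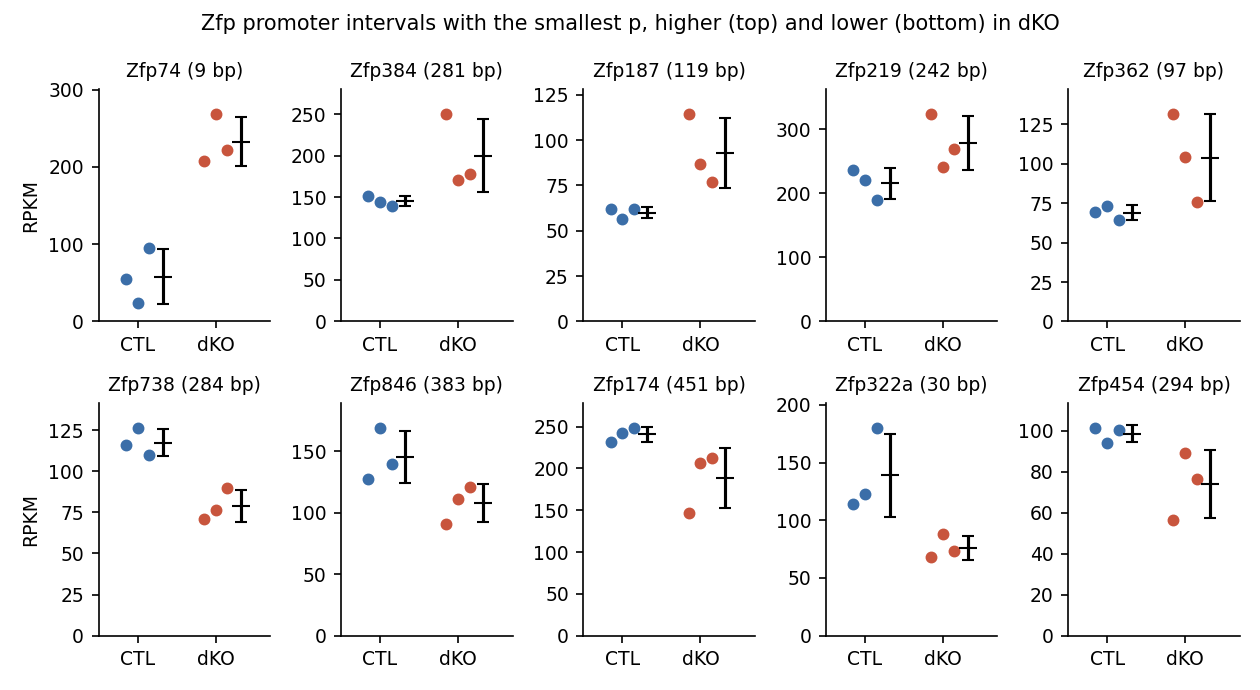
RPKM of the 5 Zfp promoter intervals with the smallest unadjusted p in each direction, higher in dKO (top) and lower in dKO (bottom), with 1 point per library in replicate order (blue CTL, red dKO) and bars for the mean ± SD (n = 3). Zfp74 goes from 57.7 ± 35.5 to 233 ± 31.8 RPKM over 9 bp, and Zfp738 from 117 ± 8.19 to 79.0 ± 9.74.

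The most accessible promoter, by the mean RPKM of the leading interval, was that of Zfp574, with 370 (CTL replicate 1), 364 and 399 RPKM in CTL and 355, 345 and 335 in dKO, a log2 fold change of -0.13 (SE 0.094). This is the promoter with 4 CCAAT shown above, and its groups overlapped by counts scaled with TMM factors, though not by RPKM. Next came Zfp84, with 296.5 ± 41.8 and 288 ± 23.1 RPKM, Zfp866 with 307 ± 14.4 and 273 ± 30.5, Zfp143 with 288 ± 6.45 and 277 ± 11.1, and Zfp787 with 279 ± 18.3 and 283 ± 18.6 (CTL and dKO, SD, n = 3). These neighbours in the order do not differ beyond their spread. The least accessible leading intervals were those of Zfp867 (62.8 ± 1.38 and 69.0 ± 9.25), Zfp354a (61.6 ± 2.58 and 61.6 ± 16.4), a KRAB gene of the kidney, and Zfp385b (56.7 ± 6.35 and 40.2 ± 20.4).

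A list of 35 genes by known role had promoter intervals at 30 genes, 62 in all, of which 0 had an adjusted p under 0.05 (edgeR) and 1 in each direction had an unadjusted p under 0.05, where the shares over all intervals are 2.64% higher and 2.31% lower. Those without an interval were Zfp57, which maintains imprints, Zfp42 (Rex1), a pluripotency marker, Zfp238, which acts in myogenesis, Zfp687 and Zfp750. Among RNA-binding genes, Zfp36 (tristetraprolin), which directs decay of AU-rich mRNAs, had 246, 261 and 211 RPKM in CTL and 285, 238 and 258 in dKO, with a log2 fold change of 0.12 (SE 0.14), which was 0.021 without dKO replicate 1 and 0.19 without dKO replicate 2. Its relative Zfp36l1 had 167 ± 12.3 and 171 ± 19.2 RPKM (0.030), and Zfp36l2 had 222 ± 24.75 and 253 ± 65.1 (0.20), the latter with 327 in dKO replicate 1 and 206 and 225.5 in the others (-0.064 without replicate 1). The groups overlapped in all 3 of these genes.

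Zfp106, an RNA-binding protein needed in motor neurons and muscle, had 120, 107 and 101.1 RPKM in CTL and 87.1, 124 and 98.4 in dKO (-0.10, SE 0.16), again with overlap. Its log2 fold change was -0.015 without dKO replicate 1 and -0.24 without dKO replicate 2. Zfp346, which binds double-stranded RNA, had 137 ± 9.745 and 115 ± 14.8 RPKM, with the largest log2 fold change below 0 among genes of RNA and protein turnover (-0.26, SE 0.14). Zfp598, a ubiquitin ligase of ribosome quality control, had 160 ± 14.8 and 158 ± 29.2 RPKM, Zfp622, which acts in assembly of the large ribosomal subunit, 186 ± 14.1 and 183 ± 3.68, and Zfp207, a spindle protein, 215 ± 1.43 and 211 ± 17.1. Zfp91, a ubiquitin ligase, had 212 ± 13.1 and 222 ± 34.5 RPKM, Zfp451, a SUMO ligase, 109 ± 8.16 and 112 ± 9.71, Zfp326 147 ± 3.37 and 158 ± 10.1, and Zfp830, a splicing factor, 135 ± 16.4 and 144 ± 13.3. In each of these genes the groups overlapped.

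Of the 5 KRAB genes listed with known targets, all but Zfp57 had an interval. Zfp809, which silences retroviral DNA, had 231, 204 and 199 RPKM in CTL and 237, 213.5 and 213 in dKO (0.064, SE 0.14). Zfp568, which represses a placental transcript of Igf2, had 139 and 143 RPKM on average (0.044, SE 0.11), and Zfp30 113 ± 28.6 and 119 ± 7.12. Zfp932, a repressor of endogenous retroviruses, had 168, 190 and 173.5 RPKM in CTL and 101.2, 168 and 176 in dKO (-0.27, SE 0.17), so that dKO replicate 1 alone lay apart (-0.063 without it), and its interval has 2 near-identical copies elsewhere in the genome.

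Among genes of development and transcription, Zfp521, a regulator of progenitor cells, had 166, 155 and 171 RPKM in CTL and 127, 129 and 140 in dKO, a log2 fold change of -0.32 (SE 0.14, adjusted p = 0.972, edgeR). Its groups did not overlap, which among the 30 leading intervals of the list held for Zfp521 and Zfp143, both lower in dKO by scaled counts, and for 0 in the other direction, beside 5.63% and 5.22% of all intervals. Zfp143, an activator of small nuclear RNA and mRNA promoters, had a log2 fold change of only -0.056 (SE 0.089). Zfp423, which commits cells to the adipocyte lineage, had 119, 115 and 166 RPKM in CTL and 190, 116 and 104 in dKO, so its spread was wider than any difference. Zfp703 had 251 ± 21.4 and 241 ± 2.02 RPKM, Zfp161 166 ± 2.69 and 160.0 ± 1.68, Zfp281, a pluripotency factor, 163 ± 9.47 and 151 ± 16.1, and Zfp335, a member of histone H3 methyltransferase complexes, 211 ± 13.2 and 214 ± 23.1. Zfp148 had 100.7 ± 13.7 and 109 ± 5.16 RPKM, Zfp592 168 ± 7.30 and 157 ± 5.03, Zfp697 83.0 ± 15.2 and 76.7 ± 3.94, Zfp516, which acts in brown fat, 146.5 ± 10.3 and 158 ± 35.3, Zfp462 140.3 ± 26.9 and 132 ± 25.5 over 29 bp, and Zfp217 121.5 ± 8.93 and 113 ± 14.9, all with overlap by scaled counts. The leading interval of Zfp384 had 208.5 ± 25.6 and 248 ± 42.6 RPKM (0.25, SE 0.13, and 0.081 without dKO replicate 1), in the same direction as its interval described above.

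Corepressors with which KRAB proteins act were taken as a fixed list of 18 genes. Promoter intervals lay at 17 of them (all but Cbx3), 32 in all, of which 0 had an unadjusted p under 0.05 (edgeR), beside 2.64% higher and 2.31% lower over all intervals, with a median log2 fold change of 0.042 and 18 above 0. Their summed CPM was 1121 to 1141 in CTL and 1268, 1047 and 1078 in dKO replicates 1 to 3, so that dKO replicate 1 lay above all CTL libraries and the other dKO libraries below them. Trim28 had 131 ± 16.1 and 136 ± 38.9 RPKM (SD, n = 3) and a log2 fold change of 0.078, Daxx one of -0.015 and Morc3 one of -0.12.

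Clustered Zfp genes formed 25 loci, of which 24 had an interval and 9 had one at every gene. Summed over a locus, with counts scaled for library size, the log2 ratio of dKO to CTL was below 0 in 16 of 24 loci. The groups did not overlap in 4 loci, all with dKO lower. The shares of single intervals without overlap, 5.63% lower and 5.22% higher, are no background for them, since sums over several intervals have less counting noise. Of the 8 loci with a ratio above 0, 4 had their highest value in dKO replicate 1. Without this library the ratio took the other sign in 7 loci. Coverage of a locus varied widely. On chromosome 9 none of the 3 genes Zfp445, Zfp167 and Zfp105 had an interval, on chromosome 7 only 1 of 6 genes from Zfp60 to Zfp850 and 4 of 10 from Zfp180 to Zfp94 had one, while 12 of 14 from Zfp84 to Zfp146, on the same chromosome, did.

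**Figure D4:**
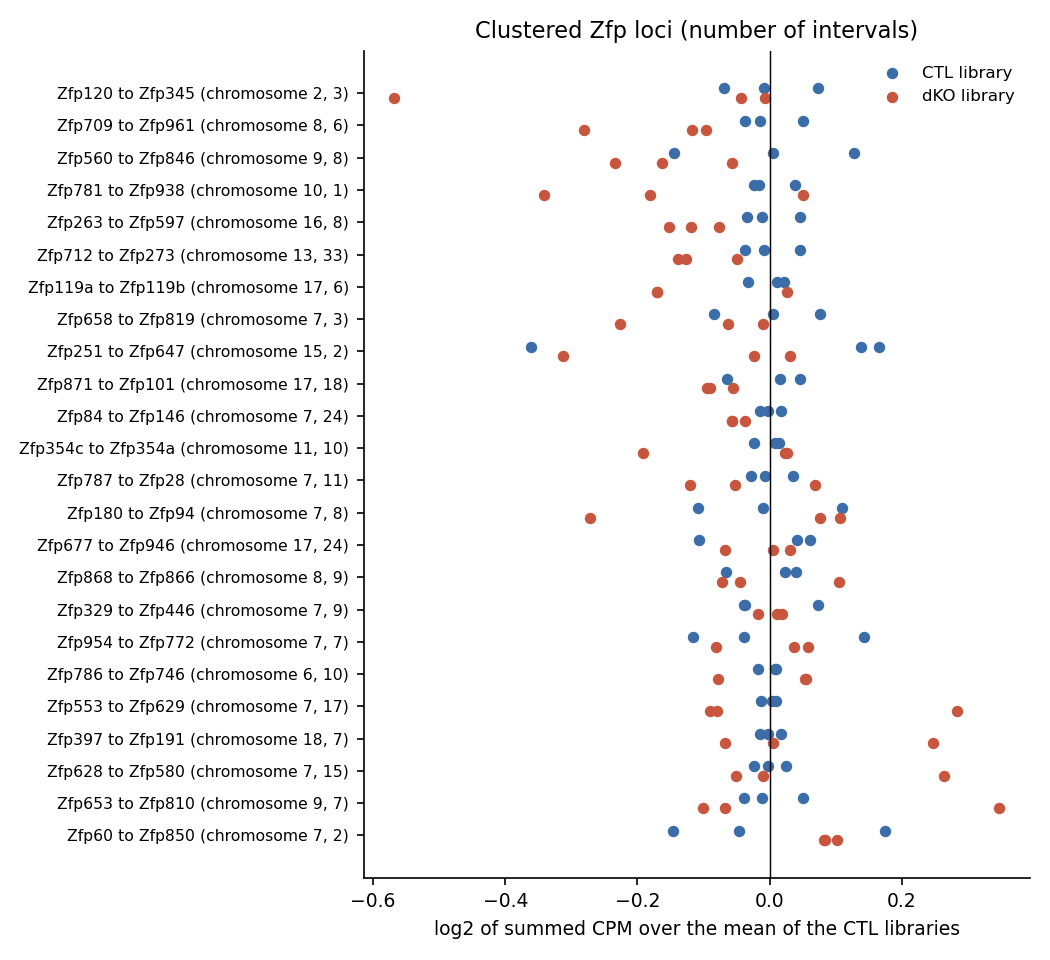
Summed CPM of the promoter intervals of each of 24 clustered Zfp loci, as log2 of its ratio to the mean of the CTL libraries (horizontal axis), with 1 point per library (blue CTL, red dKO) and loci ordered by ratio. In 16 loci the ratio of dKO to CTL lies below 0, and single dKO libraries stand far to the left or right in several.

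The 4 loci without overlap differed by less than 0.2 on the log2 scale. On chromosome 16, the 8 intervals of Zfp263, Zfp174 and Zfp597 summed to 453, 471 and 446 CPM in CTL and 421, 433 and 411 in dKO (-0.12), and no gene there has a KRAB match. On chromosome 8, from Zfp709 to Zfp961, 6 intervals summed to 214, 224 and 211 CPM against 178, 200 and 203 (-0.16, and -0.11 without dKO replicate 1). On chromosome 7, from Zfp84 to Zfp146, 24 intervals summed to 795 ± 8.86 and 768 ± 5.81 CPM (-0.050). Other loci had groups that overlapped. From Zfp120 to Zfp345 on chromosome 2 it was -0.18, and -0.025 without dKO replicate 1, which had 68.9 CPM where the other dKO libraries had 102 and 99.2. From Zfp653 to Zfp810 on chromosome 9, with 268 ± 8.54 and 282 ± 50.9 CPM, it was 0.075, and -0.084 without dKO replicate 1. From Zfp677 to Zfp946 on chromosome 17, a locus with 24 intervals at 12 of 15 genes, the ratio was -0.0098.

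The fourth, and the locus with the most intervals, was that from Zfp712 to Zfp273 on chromosome 13, from 67139530 to 67927937. It holds 23 gene entries of 21 symbols, 22 entries with a KRAB match, and 33 intervals at 19 genes. Summed CPM was 822, 853 and 806 in CTL and 751, 758 and 799 in dKO, or 827 ± 24.3 and 769 ± 26.0 (SD, n = 3), a log2 ratio of -0.10 that ran from -0.13 to -0.081 when single libraries were left out. The highest dKO library lay just below the lowest of CTL. Of the intervals 24 had a log2 fold change below 0 and 9 above, with a median of -0.13, and of -0.10 without dKO replicate 1. At an unadjusted p under 0.05 (edgeR) 5 were lower (Zfp738, Zfp456, Zfp759, Zfp58 and Zfp874a) and 0 higher, or 15.2% and 0% beside 2.31% and 2.64% of all intervals, and 0 had an adjusted p under 0.05. Without dKO replicate 1 there were 2 at an unadjusted p under 0.05 (6.06%), beside 7.95% of all intervals in the same fit, so that the share was no longer above that of all intervals. With any other single library left out the share was 9.09% to 18.2%, beside 3.18% to 5.60% of all intervals. The groups did not overlap in 7 intervals (21.2%) with lower and 1 (3.03%) with higher counts in dKO, beside 5.63% and 5.22% of all intervals.

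Values varied between genes of this locus. Zfp708, the most accessible, had 193, 181 and 169 RPKM in CTL and 200.1, 204 and 190 in dKO (0.13, SE 0.10). Zfp595, the least accessible, had 75.7, 91.0 and 96.3 RPKM against 38.0, 70.8 and 77.4 (-0.50, SE 0.25), with dKO replicate 1 the lowest and a log2 fold change of -0.24 without it. Leaving out each library in turn gave -0.71 to -0.24 for Zfp595 and 0.083 to 0.18 for Zfp708. Without this locus the median over all Zfp intervals was -0.0072 and that over KRAB intervals -0.034, against -0.015 and -0.048 with it. Leaving out single libraries moved the medians outside the locus further, from -0.061 (without dKO replicate 1) to 0.014 for all Zfp intervals and from -0.051 to -0.025 for KRAB intervals.

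**Figure D5:**
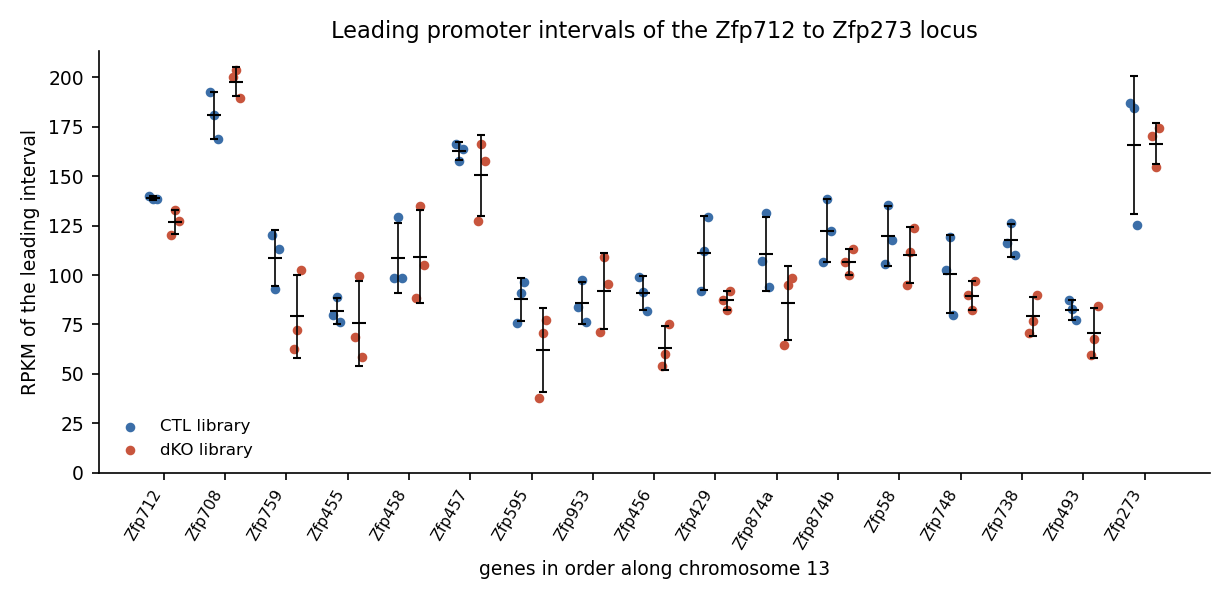
RPKM of the leading promoter interval of genes of the chromosome 13 locus (not all are drawn), in order along the chromosome, with 1 point per library (blue CTL, red dKO) and bars for the mean ± SD (n = 3). Zfp738 is the gene with the widest gap between the groups (117 ± 8.19 and 79.0 ± 9.74 RPKM), and Zfp708 lies higher in dKO (181 ± 12.0 and 198 ± 7.35).

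Promoters duplicated with their genes were the last point examined. A near-identical copy elsewhere in the genome was found for 27 members (5.30%), 19 of 248 in clusters (7.66%) and 8 of 261 outside (3.07%), and for 1 of 131 intervals (0.763%) of the Zbtb, Zkscan, Zscan and Klf genes. The median log2 fold change was -0.086 with a copy and -0.0077 without, and -0.13 and -0.061 when dKO replicate 1 was left out. Among 475 pairs of TSS windows within loci the median identity was 51.3%, 8 pairs had at least 80% and 5 at least 90%. Zfp955a and Zfp955b, identical over the sequence shown above, had 102, 125.5 and 118 RPKM in CTL and 94.0, 102 and 98.0 in dKO, and 128.5, 141 and 136 against 92.4, 113.5 and 121, with log2 fold changes of -0.23 (SE 0.15) and -0.32 (SE 0.15). How reads that match both genes were placed is not given in the sources used here, so these are not separate observations.

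In the group of 3 printed above, Zfp959 had 292, 294 and 290 RPKM in CTL and 243, 260 and 250 in dKO (-0.22, SE 0.11, unadjusted p = 0.051, edgeR), without overlap. Zfp119a had 225, 285 and 276.5 RPKM against 232, 234 and 228 (-0.18), and Zfp119b 182, 169 and 178 against 181, 188 and 166 (0.018), both with overlap. The identity of their windows was 97.7% between Zfp119a and Zfp119b, 96.4% between Zfp959 and Zfp119b and 95.05% between Zfp959 and Zfp119a. The part of shared reads in these values was not tested.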

How the data were processed

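Per the methods, the authors used Trimmomatic for adapters, Bowtie for alignment to mm9 and Picard for duplicates, shifted fragment ends for the Tn5 cut, called regions with MACS2, kept those shared by the 3 replicates of a group and merged them over both groups. The deposited values are whole counts of fragment ends per interval and library, not normalized. 0 columns of sample values were left unused. From these counts all 39768 intervals were fitted with edgeR 4.0.16 (R 4.3.3, TMM factors, robust quasi-likelihood, no filter, common biological coefficient of variation 0.126, Benjamini-Hochberg adjustment over the whole table). DESeq2 1.42.0, median-of-ratios factors, a filter on low counts, a replicate block, other membership rules and leaving out each library were the alternatives. Scripts were tested on simulated data. Totals of 3520008 to 6117245 counts set the precision, and members held a median of about 118 counts per library.

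The members and lists were chosen with earlier results of these data known. Named are, for each direction, the 5 intervals of smallest p, then the 5 highest and 3 lowest leading intervals, the highest and lowest gene of each locus with at least 3 accessible genes (not all described in the text), and the list by role. Single loci, pairs of copies and sequences beyond intervals without exons and the most alike pair were chosen after their values were seen. KRAB matches allowed 6 mismatches at 23 scored positions of the A box in translated GENCODE vM1 coding sequences, and not in a protein table as planned. Copies are blastn 2.17.0 matches of at least 95% identity over at least 80% of the interval. Sequences come from the mm9 reference (NCBIM37). 1 result is not reported here.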

Additional observations from a re-analysis of the deposited data

How the results depend on the processing

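With every alternative 0 of the Zfp promoter intervals had an adjusted p under 0.05 (edgeR or DESeq2). At an unadjusted p under 0.05 there were 26 (5.11%, beside 4.95% of all intervals), and 9 with DESeq2 (1.77% beside 1.90%). With leading intervals only there were 14 (5.43%), 3 higher (1.16%) and 11 lower (4.26%). Among leading intervals of other genes the share was 3.47%, with 1.35% higher and 2.12% lower. There were 12 to 35 when single libraries were left out, with 12 (2.36%) beside 3.18% without CTL replicate 3, 29 (5.70%) beside 7.95% without dKO replicate 1 and 35 (6.88%) beside 5.60% without dKO replicate 3. Their median log2 fold change (-0.015) was -0.058 with leading intervals only, and ran from -0.064 to 0.0054 without single libraries. The difference of the medians between clustered and scattered genes (-0.013) ran from -0.043 to 0.0022 and that between KRAB and other genes (-0.058) from -0.099 to 0.026, the latter without dKO replicate 1. Without members that have a copy there were 25 at an unadjusted p under 0.05 (5.19%, beside 4.95% of all intervals) and a median of -0.0077 (-0.061 without dKO replicate 1). This alternative and the one on leading intervals were chosen after seeing the data. The replicate numbers do not pair the libraries, since deviations of libraries with the same number correlated at -0.098, -0.053 and -0.032. A fit with the replicate block gave 21 Zfp intervals at an unadjusted p under 0.05 (4.13% beside 4.42% of all intervals), 0 called. Where values moved, the cause was not tested.

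Of 80 named intervals, 799 values under the alternatives were compared, of which 735 kept the sign of the fold change and 64, in 38 intervals, did not, all of them with a library left out and 24 without dKO replicate 1. Without single libraries, these log2 fold changes ran from -0.15 to 0.039 for Zfp84, -0.056 to 0.080 for Zfp787, -0.0055 to 0.21 for Zfp867, -0.15 to 0.18 for Zfp354a, -0.13 to 0.11 for Zfp263, -0.079 to 0.032 for Zfp597, -0.084 to 0.145 for Zfp51, -0.071 to 0.10 for Zfp946, -0.30 to 0.12 for Zfp81, -0.47 to 0.075 for Zfp952, -0.018 to 0.064 for Zfp119b, -0.025 to 0.069 for Zfp191, -0.047 to 0.032 for Zfp35, -0.37 to 0.063 for Zfp442, -0.14 to 0.14 for Zfp282, -0.17 to 0.12 for Zfp580, -0.059 to 0.031 for Zfp954, -0.13 to 0.13 for Zfp112, -0.12 to 0.23 for Zfp93, -0.24 to 0.0093 for Zfp768 and -0.015 to 0.070 for Zfp963. For genes listed by role they ran from -0.025 to 0.12 for Zfp36l1, -0.064 to 0.33 for Zfp36l2, -0.084 to 0.0014 for Zfp207, -0.089 to 0.15 for Zfp91, -0.15 to 0.10 for Zfp598, -0.061 to 0.10 for Zfp451, -0.074 to 0.038 for Zfp622, -0.0041 to 0.14 for Zfp830, -0.017 to 0.14 for Zfp809, -0.057 to 0.11 for Zfp568, -0.050 to 0.30 for Zfp30, -0.29 to 0.24 for Zfp423, -0.22 to 0.050 for Zfp697, -0.10 to 0.25 for Zfp516, -0.21 to 0.095 for Zfp462, -0.22 to 0.0024 for Zfp217 and -0.073 to 0.11 for Zfp335. Counts were scaled to library totals in the intervals, so an equal change at all of them would not be seen, and accessibility outside the intervals was not analysed here.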
